A study of Mus musculus with 15 samples.

Results

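The mouse genes Ybx1 and Ybx3 were examined as RNA targets of tristetraprolin (TTP) by iCLIP, in which UV light crosslinks a protein to RNA and the end of each cDNA marks the crosslinked nucleotide. They were chosen by name as Y-box protein genes, and every sense-strand crosslink site inside either gene was kept, which gave 446 of the 162273 sites listed over 6 deposited site lists. Ybx3 held 372 of these sites and Ybx1 held 74. Both are members of 4835 genes with at least 1 crosslink site in an annotated 3′UTR. The cells were TTP-deficient C57BL/6 bone marrow-derived macrophages immortalised with the oncogenes hcmyc and hRasG12V, CD11b and F4/80 positive, which carried a doxycycline-inducible vector for GFP-TTP or for the mutant GFP-TTP-AA. Every group had 6 h of doxycycline at 1 µg/ml, with lipopolysaccharide (LPS, a bacterial cell-wall component that activates macrophages) at 1 µg/ml for 0 h, 1 h or 4 h, and RNA was recovered with a GFP-binding nanobody. The 15 libraries fell into 6 groups, with 2 libraries each for TTP 0 h, TTP-AA 0 h, TTP 4 h and TTP-AA 4 h, 4 for TTP 1 h and 3 for TTP-AA 1 h. The bound protein was therefore a transgene product in an immortalised line, in place of the endogenous protein.

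TTP is a zinc-finger protein that binds AU-rich elements in 3′UTRs and recruits the deadenylation machinery. The kinase MK2, active after LPS, phosphorylates TTP at a pair of serines, and TTP-AA has alanines at these sites. Y-box proteins carry a cold-shock domain, a small RNA- and DNA-binding fold, and package mRNAs into messenger ribonucleoprotein particles (mRNPs). YBX1 (YB-1) is an abundant mRNP component that influences mRNA translation and stability, and YBX3 is its close relative. The sites described here lie on the mRNAs that encode these proteins, and they count where TTP was crosslinked to the transcript.

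Ybx3 (ENSMUSG00000030189.15) lies on the minus strand at chr6:131364855-131388476 in mm10, and its annotated 3′UTR is 584 nt long, in 2 exons. Ybx1 (ENSMUSG00000028639.14) lies on the minus strand at chr4:119277981-119294604, with a 3′UTR of 418 nt, also in 2 exons. Positions below are counted from 1 at the first base after the stop codon. The following stretches of 30 nt are shown because they held the most TTP-AA 1 h cDNAs of each 3′UTR, taken in order without overlap. Capitals mark the nonamer UUAUUUAUU, the full AU-rich TTP motif, in the first stretch and runs of at least 5 U in the others.
Ybx3 nt 464 to 493, chr6:131364946-131364975, minus strand: aauuuuaugcccUUAUUUAUUccuaggaug
Ybx3 nt 285 to 314, chr6:131365125-131365154, minus strand: uuucuaUUUUUUUccuggUUUUUacuguuu
Ybx3 nt 500 to 529, chr6:131364910-131364939, minus strand: gaacgUUUUUgcuuucucacauagcucucu
Ybx1 nt 175 to 204, chr4:119278195-119278224, minus strand: ggUUUUUauuaUUUUUaccuaaagaugucu
Ybx1 nt 208 to 237, chr4:119278162-119278191, minus strand: uuugguaaugacaaacgugUUUUUUaagaa

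The 2 genes differed in the motif they carry. The Ybx3 3′UTR had the pentamer AUUUA at nt 453 to 457 and at nt 478 to 482, and the second copy lies inside the nonamer UUAUUUAUU at nt 476 to 484. The Ybx1 3′UTR had no AUUUA, no UAUUUAU and no UUAUUUAUU, although it was richer in U, at 34.2% of its bases against 27.1% in Ybx3. All motifs were searched on the RNA strand only, with overlapping copies counted. Among the 13483 annotated 3′UTRs at least as long as that of Ybx3, the first 584 nt held AUUUA in 54.7% and UUAUUUAUU in 3.07%. Among the 15141 at least as long as that of Ybx1, the first 418 nt held AUUUA in 43.8%. The U run UUUUU occurred 7 times in Ybx3 and 12 times in Ybx1, and 68.3% and 56.2% of 3′UTRs cut to the same lengths held it. Neither 3′UTR held UGUGU. Of 1028483 consecutive 30-nt pieces of annotated 3′UTRs, 0.137% held UUAUUUAUU and 7.21% held UUUUU.

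The lists held between 19167 and 174397 cDNAs, of which between 906 and 93510 lay in 3′UTRs, and TTP-AA 1 h was the deepest by far in 3′UTRs. Each list was pooled from its libraries by the authors and holds only sites that passed a false discovery rate filter, so there is no spread between replicates, each p below compares 2 pooled lists and not 2 conditions, intervals cover counting error only, and a gene without sites is one without sites that passed the filter. The headers of both 1 h lists carry a peak-calling mark (regionAsOne) that the others lack, so differences of time and of peak calling cannot be told apart. No control immunoprecipitation was analysed here. Of 8 macrophage marker genes, 6 had cDNAs in mRNA exons in at least 1 list, with sums of 0 to 367 per list, and Fcgr1 and Mertk had none. None of the 10 markers of T cells, B cells, fibroblasts and epithelium had any.

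Crosslinking to both transcripts was almost wholly in the 3′UTR. Over the 6 lists, Ybx3 had 1108 sense cDNAs, of which 1101 (99.4%) were in the 3′UTR, and Ybx1 had 181, of which 178 (98.3%) were in the 3′UTR. Neither coding sequence had a site in any list. The exceptions were 5 intronic cDNAs of Ybx3 at TTP 0 h, on 5 neighbouring bases, 2 cDNAs in the 5′UTR of Ybx3 at TTP 1 h, and 3 intronic cDNAs of Ybx1 at TTP 1 h. No site lay on the opposite strand of either gene, and none lay in the 500 nt downstream of either annotated end.

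The Ybx1 coding sequence, which had no site in any list, shares sequence with pseudogenes. Of the 36-nt stretches of the Ybx1 coding sequence, 57.3% (535 of 934) also occur in the annotated transcript of another gene, whereas 0 of 383 in its 3′UTR do. These copies lie in 8 processed pseudogenes, among them Gm11560, Ybx1-ps2 and CT009755.1, and none of the 8 held a crosslink site. A read wholly inside a shared stretch would match another gene as well. The paper describes mapping unique reads, without saying how reads with several matches were handled. Ybx3 shared none of its 1649 stretches with an annotated transcript of another gene and also had no coding site. The part of shared sequence in the absence of Ybx1 coding sites was not tested. Copies outside annotated transcripts were not searched, since no genome sequence was used here.

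Ybx3 was among the most crosslinked 3′UTRs in each list. It had 71 3′UTR cDNAs at TTP 0 h, 56 at TTP-AA 0 h, 134 at TTP 1 h, 801 at TTP-AA 1 h, 30 at TTP 4 h and 9 at TTP-AA 4 h. By 3′UTR cDNAs it ranked 3 of 738 genes at TTP 0 h, 8 of 894 at TTP-AA 0 h, 7 of 1295 at TTP 1 h, 8 of 4468 at TTP-AA 1 h, 5 of 127 at TTP 4 h and 16 of 198 at TTP-AA 4 h. The number of cDNAs follows both the amount of a transcript and its binding, which cannot be told apart in these data. The median gene with any 3′UTR cDNA had between 3 and 8 per list. Of the 13 genes with 3′UTR cDNAs in all 6 lists, 2 stayed within the first 20 ranks throughout, Ybx3 and Actb (cytoplasmic β-actin). Scaled for length, Ybx3 ranked between 6 and 22 over the lists.

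Ybx1 was crosslinked at a lower level and in fewer lists. It had 9 3′UTR cDNAs at TTP 0 h, 4 at TTP-AA 0 h, 23 at TTP 1 h and 142 at TTP-AA 1 h, and none in either 4 h list. Its rank was 87, 367, 49 and 72 in the lists where it appeared. At 0 h each of its sites rested on a single cDNA. In TTP-AA 1 h, the deepest list, Ybx3 had 137 cDNAs per 100 nt of 3′UTR and Ybx1 had 34.0, a ratio of 4.04 (exact 95% interval 3.37 to 4.86). In the other lists in which both were present the same ratio of densities was 5.65 at TTP 0 h, 10.0 at TTP-AA 0 h and 4.17 at TTP 1 h.

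**Figure D1:**
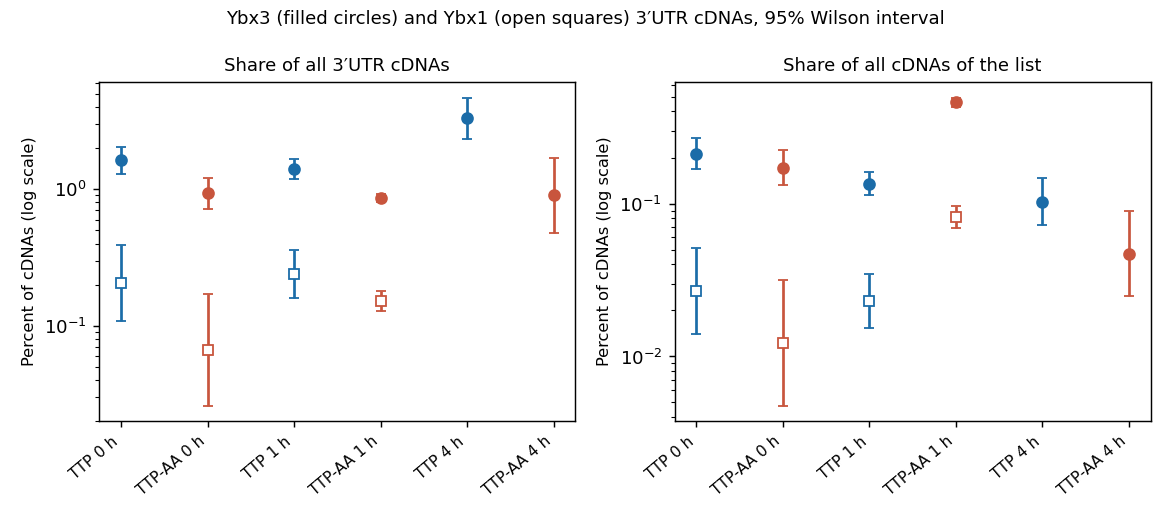
Ybx3 (filled circles) and Ybx1 (open squares) 3′UTR cDNAs as a percentage of all 3′UTR cDNAs of a list (left) and of all cDNAs of a list (right), on log axes, with TTP in blue, TTP-AA in red and 95% Wilson intervals as bars. The TTP-AA 1 h points are below those of TTP 1 h on the left and above them on the right, and Ybx1 has no point at 4 h because it had 0 cDNAs there.

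Of all 3′UTR cDNAs in a list, Ybx3 took 1.63% at TTP 0 h (95% Wilson interval 1.29 to 2.04). It took 1.40% at TTP 1 h (1.19 to 1.66) and 3.31% at TTP 4 h (2.33 to 4.69). With TTP-AA, the share at 0 h was 0.932% (0.719 to 1.21), followed by 0.857% at 1 h (interval 0.800 to 0.918) and, in the 4 h list, 0.900% (0.474 to 1.70). The TTP-AA shares were thus nearly level over time, with overlapping intervals, and each lay below the TTP share of its time. In the order of levels, the interval of TTP 4 h stood apart from the next, TTP 0 h, and every other pair of neighbours had overlapping intervals. The Ybx1 shares were 0.206% at TTP 0 h (0.108 to 0.391), 0.0666% at TTP-AA 0 h (0.0259 to 0.171), 0.241% at TTP 1 h (0.160 to 0.361) and 0.152% at TTP-AA 1 h (0.129 to 0.179). They also lay lower with TTP-AA at both times, with intervals that overlapped.

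The comparison of TTP-AA with TTP asks how the mutation bears on where the protein is crosslinked. Genes with at least 10 3′UTR cDNAs over the 2 lists were compared by Fisher's exact test of the gene's cDNAs against all other 3′UTR cDNAs, with Benjamini-Hochberg adjustment over all tested genes. The Ybx3 share was lower with TTP-AA at all 3 times. At 0 h the odds ratio was 0.571 (95% interval 0.402 to 0.811, log2 -0.81 ± 0.26 SE, Fisher's exact test, adjusted p = 0.0107). Of the 241 genes tested at 0 h, 13.3% were called lower with TTP-AA. At 1 h the odds ratio was 0.606 (0.504 to 0.728, log2 -0.72 ± 0.14 SE, Fisher's exact test, adjusted p = 4.27e-05), where 4.41% of 2065 genes were called lower and 1.99% higher. At 4 h it was 0.275 on counts of 30 and 9 (log2 -1.86 ± 0.54 SE, Fisher's exact test, adjusted p = 7.78e-04), where 32.0% of only 25 genes were called lower.

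These differences have to be read against the other genes and against the choice of denominator. Among the 925 genes with cDNAs in both 1 h lists, the median log2 odds ratio was -0.66, close to the -0.72 of Ybx3. Over all 2065 tested genes, most of which had cDNAs in only 1 of the lists and take their value from the 0.5 added to each count, the median was 1.23. The corresponding medians were -0.25 over 197 genes in both lists and -0.06 over all 241 at 0 h, and -1.22 over 15 and -0.80 over all 25 at 4 h. In number of cDNAs, Ybx3 was 5.98 times as high in TTP-AA 1 h as in TTP 1 h, while all 3′UTR cDNAs together rose from 9558 to 93510. Taken as a share of all cDNAs of the list, Ybx3 made up 0.135% (0.114 to 0.160) at TTP 1 h and 0.459% (0.429 to 0.492) at TTP-AA 1 h, which turned the direction of the comparison (log2 1.77 ± 0.13 SE, Fisher's exact test, adjusted p = 1.06e-48). On that scale 84.9% of the 2065 genes were called higher with TTP-AA, and the median moved to 1.82 over the 925 genes in both lists and to 3.71 over all tested genes. In the same exact test, at 0 h this scale ended the call (log2 -0.30 ± 0.26 SE, adjusted p = 0.449), as did counting each site once (log2 0.16 ± 0.40 SE, adjusted p = 0.938), and at 4 h the share of all cDNAs gave log2 -1.08 ± 0.54 SE (adjusted p = 0.0564). At 1 h, sites with at least 2 cDNAs also ended the call (log2 -0.47 ± 0.17 SE, exact test, adjusted p = 0.0822). Counting each site once gave a larger difference in the main direction (log2 -1.64 ± 0.20 SE, exact test, adjusted p = 9.39e-12). That count discards the cDNAs per site, which for Ybx3 were 1.84 at TTP 1 h and 3.74 at TTP-AA 1 h. Over all 3′UTR sites the means were 1.41 and 1.53. The larger difference follows from these values, so it is no separate support for the call.

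**Figure D2:**
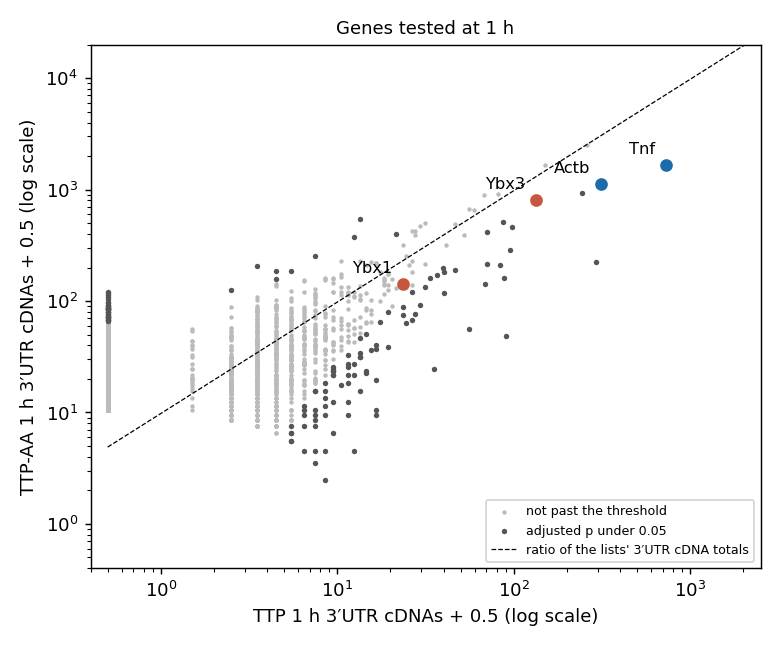
Each point is 1 of the 2065 genes tested at 1 h, by its 3′UTR cDNAs in TTP 1 h (x) and TTP-AA 1 h (y), with 0.5 added and both axes logarithmic, dark where the adjusted p was under 0.05. The dashed line marks the ratio of the lists' 3′UTR cDNA totals, and Ybx3 (134 and 801 cDNAs) and Ybx1 (23 and 142) both lie below it, as do Actb and Tnf.

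For Ybx1 the difference between the proteins did not pass the threshold. At 0 h its counts were 9 with TTP and 4 with TTP-AA (odds ratio 0.344, 95% interval 0.112 to 1.06, Fisher's exact test, adjusted p = 0.141). At 1 h they were 23 and 142 (odds ratio 0.619, 0.400 to 0.959, Fisher's exact test, adjusted p = 0.266), and on the share of all cDNAs the direction turned here too (log2 1.79 ± 0.32 SE, exact test, adjusted p = 2.02e-09), while with each site counted once it stayed lower with TTP-AA and passed the threshold (log2 -2.12 ± 0.40 SE, exact test, adjusted p = 1.74e-04). At 1 h Ybx1 had 1.21 cDNAs per site with TTP and 3.55 with TTP-AA. The limit given above for counting sites once therefore holds here too. At 4 h Ybx1 had no cDNA with either protein and was not tested.

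The ratio of Ybx3 to Ybx1 cDNAs within a list does not depend on any denominator. At 1 h it was 5.83 with TTP (134 to 23) and 5.64 with TTP-AA (801 to 142). The odds ratio between the lists was 0.968 with a 95% interval of 0.573 to 1.58 (Fisher's exact test, p = 1.00, adjusted over 4 comparisons p = 1.00). At 0 h the ratio was 7.89 with TTP and 14.0 with TTP-AA, with an interval of the odds ratio from 0.463 to 8.27 (exact adjusted p = 0.733). From 0 h to 1 h the odds ratio was 0.739 with TTP (0.285 to 1.77, exact adjusted p = 0.733) and 0.403 with TTP-AA (0.105 to 1.12, exact adjusted p = 0.352). None of the 4 comparisons passed the threshold, and the intervals at 0 h are wide because Ybx1 had so few cDNAs.

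Each step in time was tested in the same way, and the steps from 0 h to 1 h and from 1 h to 4 h share the 1 h list. From 0 h to 1 h the Ybx3 share with TTP had an odds ratio of 0.858 (0.643 to 1.15, Fisher's exact test, adjusted p = 0.437), where 47.5% of 276 tested genes were called in either direction. As a share of all cDNAs it was lower at 1 h (log2 -0.65 ± 0.21 SE, exact test, adjusted p = 0.0100), with each site counted once it gave log2 0.70 ± 0.35 SE (adjusted p = 0.0875), and with sites of at least 2 cDNAs it was lower at 1 h (log2 -0.90 ± 0.25 SE, adjusted p = 0.00155). From 1 h to 4 h it had an odds ratio of 2.44 (1.64 to 3.63, log2 1.29 ± 0.29 SE, Fisher's exact test, adjusted p = 8.35e-04), where 14.1% of 170 genes were called higher. The median log2 odds ratio of the 54 genes with cDNAs in both of these lists was 1.82 and that of all 170 was -1.25, on either side of Ybx3, and as a share of all cDNAs Ybx3 gave log2 -0.37 ± 0.29 SE (exact test, adjusted p = 0.235). Sites with at least 2 cDNAs ended this call (log2 0.97 ± 0.37 SE, exact test, adjusted p = 0.0613). With TTP-AA the Ybx3 odds ratio was 0.911 from 0 h to 1 h (0.695 to 1.19, Fisher's exact test, adjusted p = 0.911), where 12.4% of 2052 genes were called, and 1.11 from 1 h to 4 h (0.583 to 2.11, Fisher's exact test, adjusted p = 1.00), where 3.13% of 1980 genes were called. The medians of the genes in both lists were -1.56 over 681 and 3.26 over 144 genes, and those of all tested genes 0.89 and 1.26. With each site counted once these 2 steps gave log2 -1.10 ± 0.27 SE (exact test, adjusted p = 0.00532), past the threshold, and 1.41 ± 0.58 SE (exact test, adjusted p = 0.668). Ybx3 had 1.75 cDNAs per site at TTP-AA 0 h and 3.74 at TTP-AA 1 h, so the first value carries the limit given above. As shares of all cDNAs the 2 TTP-AA steps gave log2 1.41 ± 0.20 SE (exact test, adjusted p = 2.13e-14) and log2 -3.22 ± 0.47 SE (adjusted p = 1.00e-22). On that scale 466 of 2052 genes were called higher at the first and 271 of 1980 lower at the second. The medians were -0.02 and -0.11 over genes in both lists and 2.43 and -2.10 over all tested genes. With TTP from 0 h to 1 h, 93 of 276 genes were called lower, with medians of -1.12 over genes in both lists and -0.83 over all.

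Ybx1 passed the threshold at none of these steps in the main test on the share of 3′UTR cDNAs. Its odds ratio was 1.13 with TTP from 0 h to 1 h (0.532 to 2.41, Fisher's exact test, adjusted p = 0.926) and 2.04 with TTP-AA (0.796 to 5.21, Fisher's exact test, adjusted p = 0.382). From 1 h to 4 h it went from 23 to 0 cDNAs with TTP (Fisher's exact test, adjusted p = 0.546) and from 142 to 0 with TTP-AA (Fisher's exact test, adjusted p = 1.00), in lists of 906 and 1000 3′UTR cDNAs at 4 h. As shares of all cDNAs, 3 of these steps passed the threshold, from 0 h to 1 h with TTP-AA (log2 2.57 ± 0.69 SE, exact test, adjusted p = 1.41e-05) and from 1 h to 4 h with TTP (exact test, adjusted p = 0.0192) and with TTP-AA (exact test, adjusted p = 2.06e-05). On that scale 466 of 2052 tested genes were called higher from 0 h to 1 h with TTP-AA. From 1 h to 4 h, 47 of 170 were called lower with TTP and 271 of 1980 with TTP-AA. Of 3′UTR cDNAs at sites with at least 2, the Ybx1 share passed from 0 h to 1 h with TTP-AA (log2 3.81 ± 2.04 SE, exact test, adjusted p = 0.0235). Each Ybx1 site at TTP-AA 0 h held 1 cDNA, so none was left there. At the depth of the 4 h lists, the loss of Ybx1 sites at 4 h was not distinguishable from its 1 h share of 3′UTR cDNAs.

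Whether the protein difference itself changed with time was tested by an exact test of equal odds ratios. For Ybx3 the log2 odds ratio at 1 h differed from that at 0 h by 0.09 (adjusted over 4 tests p = 0.840, exact test). That at 4 h differed from that at 1 h by -1.14 (p = 0.0383, adjusted p = 0.153, exact test) and from that at 0 h by -1.05 (adjusted p = 0.168, exact test). For Ybx1 the change from 0 h to 1 h was 0.85 (adjusted p = 0.503, exact test). No such difference passed the threshold on the 3′UTR scale.

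**Figure D3:**
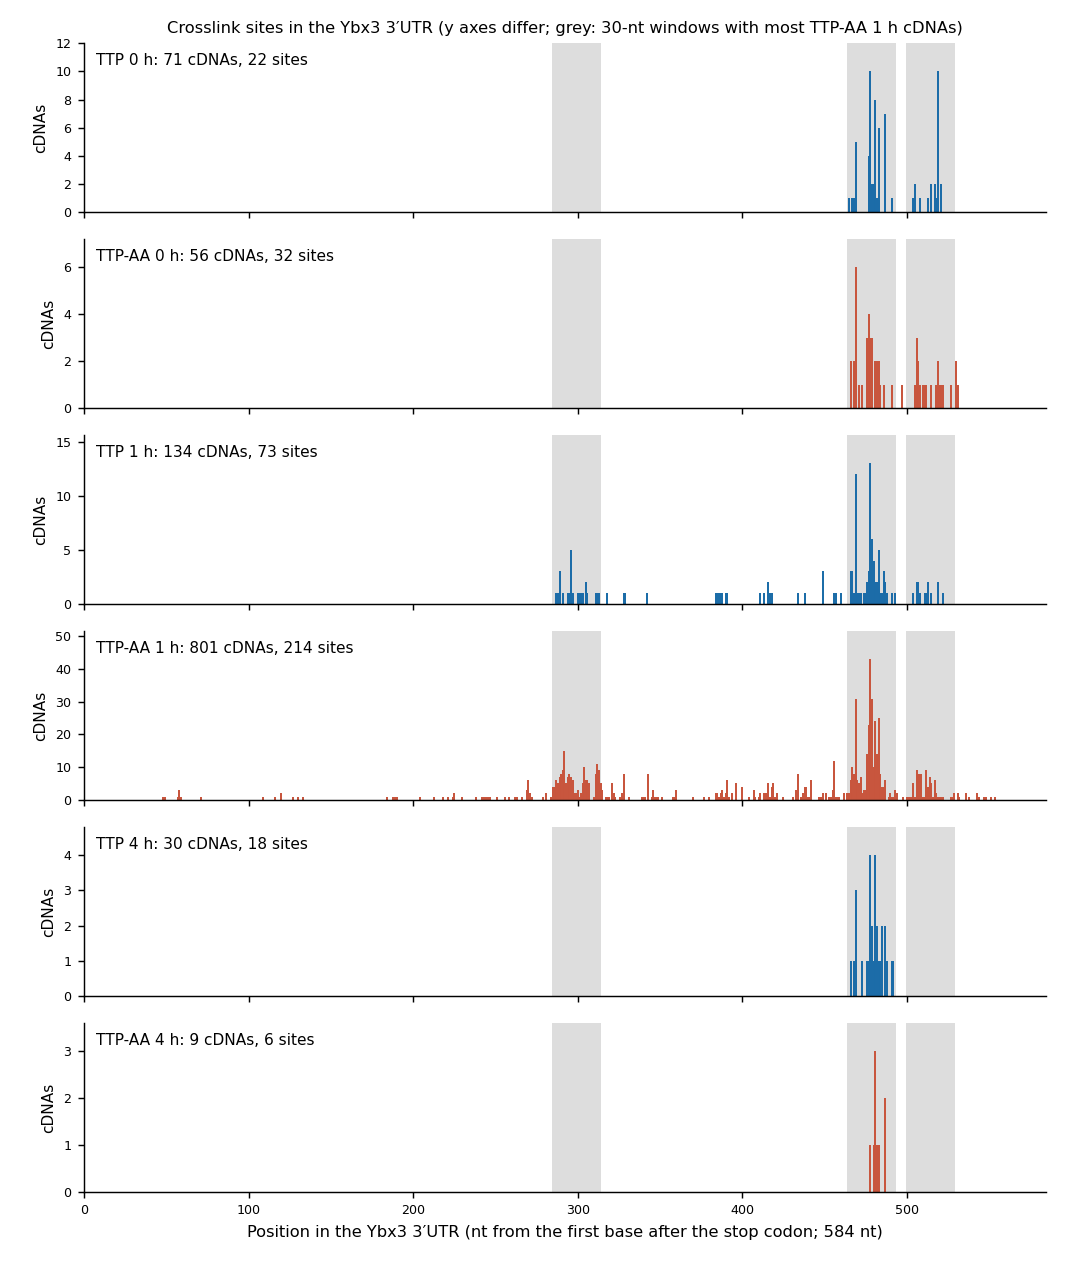
cDNAs (y, a separate scale for each list) at each position of the Ybx3 3′UTR (x, nt after the stop codon) in the 6 lists, with TTP in blue, TTP-AA in red and the 3 printed stretches in grey. All lists have sites in the stretch at nt 464 to 493, whereas sites upstream of nt 437 occur in the 1 h lists and in no other.

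Along the Ybx3 3′UTR, one place was occupied in every list. The stretch with the nonamer, nt 464 to 493, held 49 of 71 cDNAs at TTP 0 h (69.0%), 34 of 56 at TTP-AA 0 h (60.7%), 71 of 134 at TTP 1 h (53.0%) and 299 of 801 at TTP-AA 1 h (37.3%). At 4 h it held all cDNAs, 30 with TTP and 9 with TTP-AA. The position with the most cDNAs at TTP-AA 1 h was nt 478 (chr6:131364961), the first base of the AUUUA inside the nonamer, with 43. The same position had 10 cDNAs at TTP 0 h, 3 at TTP-AA 0 h, 13 at TTP 1 h, 4 at TTP 4 h and 1 at TTP-AA 4 h. It was the highest position of all 3 TTP lists as well, tied at 10 cDNAs with nt 519 at 0 h and at 4 cDNAs with nt 481 at 4 h. The highest position was nt 469 at TTP-AA 0 h, with 6 cDNAs, and nt 481 at TTP-AA 4 h, with 3. Of 220 positions with a site in any list, 4 were shared by all 6 lists, nt 478, 481, 482 and 483, and all of them lie inside the nonamer. Only the 6 sites of TTP-AA 4 h, between nt 478 and nt 487, could be shared by all lists.

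The second stretch, nt 285 to 314, has a run of 7 U and a run of 5 U and no AUUUA. It held 24 cDNAs at TTP 1 h (17.9%) and 167 at TTP-AA 1 h (20.8%), and none in the other 4 lists. The third stretch, nt 500 to 529, held 22 cDNAs at TTP 0 h (31.0%), 18 at TTP-AA 0 h (32.1%), 14 at TTP 1 h (10.4%) and 87 at TTP-AA 1 h (10.9%), and none at 4 h. Together the 3 stretches held 69.0% of the Ybx3 cDNAs at TTP-AA 1 h, 81.3% at TTP 1 h and between 92.9% and 100% in the other lists. The first site of Ybx3 was at nt 465 or later in each 0 h and 4 h list, at nt 287 at TTP 1 h and at nt 48 at TTP-AA 1 h. The last site was at nt 554 in TTP-AA 1 h, 5 bases before the AAUAAA polyadenylation signal at nt 559.

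A site was counted as near AUUUA when a whole AUUUA lay within 20 nt of it, which for Ybx3 covers nt 437 to 498, or 10.6% of the 3′UTR. The share of Ybx3 cDNAs near AUUUA was 69.0% at TTP 0 h (95% Wilson interval 57.5 to 78.6), 62.5% at TTP-AA 0 h (49.4 to 74.0), 58.2% at TTP 1 h (49.7 to 66.2) and 43.4% at TTP-AA 1 h (40.1 to 46.9). At 4 h it was 30 of 30 with TTP (88.6 to 100) and 9 of 9 with TTP-AA (70.1 to 100). Over all 3′UTR cDNAs the share ran from 28.1% at TTP-AA 4 h to 46.3% at TTP 0 h, with 43.4% at TTP 1 h and 40.7% at TTP-AA 1 h. At 1 h the share was lower with TTP-AA than with TTP, with a difference of -14.8 percentage points (Fisher's exact test, p = 0.00191, adjusted over 7 comparisons p = 0.00446). In these lists 42 of 134 and 353 of 801 cDNAs lay upstream of nt 437. TTP-AA 1 h was the deeper list, with 93510 3′UTR cDNAs against 9558 at TTP 1 h. The part of depth in this difference between the proteins was not tested.

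The protein difference at 0 h was -6.51 points and did not pass the threshold (exact adjusted p = 0.533), and at 4 h both shares were 100% (exact adjusted p = 1.00). Between times, the share near AUUUA fell by 19.1 points from 0 h to 1 h with TTP-AA (Fisher's exact test, adjusted p = 0.0136), with a difference of -10.8 points with TTP that did not pass the threshold (exact adjusted p = 0.188). From 1 h to 4 h it rose by 41.8 points with TTP (Fisher's exact test, adjusted p = 6.06e-06) and by 56.6 points with TTP-AA (Fisher's exact test, adjusted p = 0.00207). The 1 h lists were deeper and carried the other peak-calling mark, and the part of either in these steps was not tested.

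**Figure D4:**
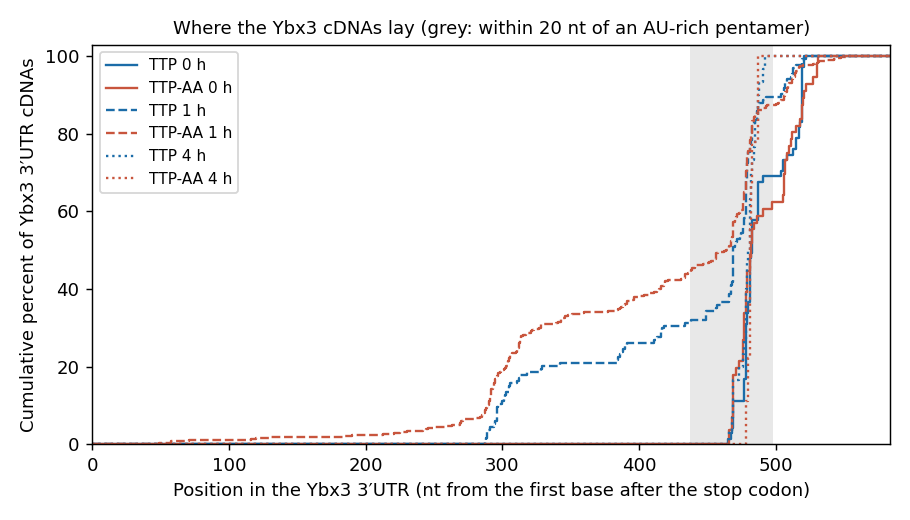
Cumulative percentage of Ybx3 3′UTR cDNAs (y) from the stop codon to the 3′ end (x, nt) for the 6 lists, with TTP in blue, TTP-AA in red, 0 h solid, 1 h dashed and 4 h dotted, and nt 437 to 498 in grey. The TTP 1 h curve starts at nt 287 and reaches 31.3% before the grey zone. The TTP-AA 1 h curve starts at nt 48 and reaches 44.1% there, while the 0 h and 4 h curves stay at 0 until nt 465 or later.

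Of the 73 Ybx3 sites of TTP 1 h, 69 (94.5%, 95% Wilson interval 86.7 to 97.8) fell on a nucleotide with a TTP-AA 1 h site, where 66.1% of the bases between the first and last TTP 1 h site (nt 287 to 522) had one. All 73 had a TTP-AA 1 h site within 15 nt (100%), but so did 100% of the bases in that span, so the 15-nt measure could not have come out otherwise. In the other direction, 165 of the 214 TTP-AA 1 h sites (77.1%, 71.0 to 82.2) had a TTP 1 h site within 15 nt. The TTP-AA 1 h list had sites on 36.6% of all bases of the Ybx3 3′UTR, and 102 of the 214 rested on 1 cDNA. All 22 sites of TTP 0 h and all 6 of TTP-AA 4 h were on bases that also carried a site at TTP-AA 1 h, as were 30 of 32 of TTP-AA 0 h and 17 of 18 of TTP 4 h. The sites of these lists lay between nt 465 and nt 531, where most bases carried a TTP-AA 1 h site. High overlap was therefore likely there whatever the exact positions.

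**Figure D5:**
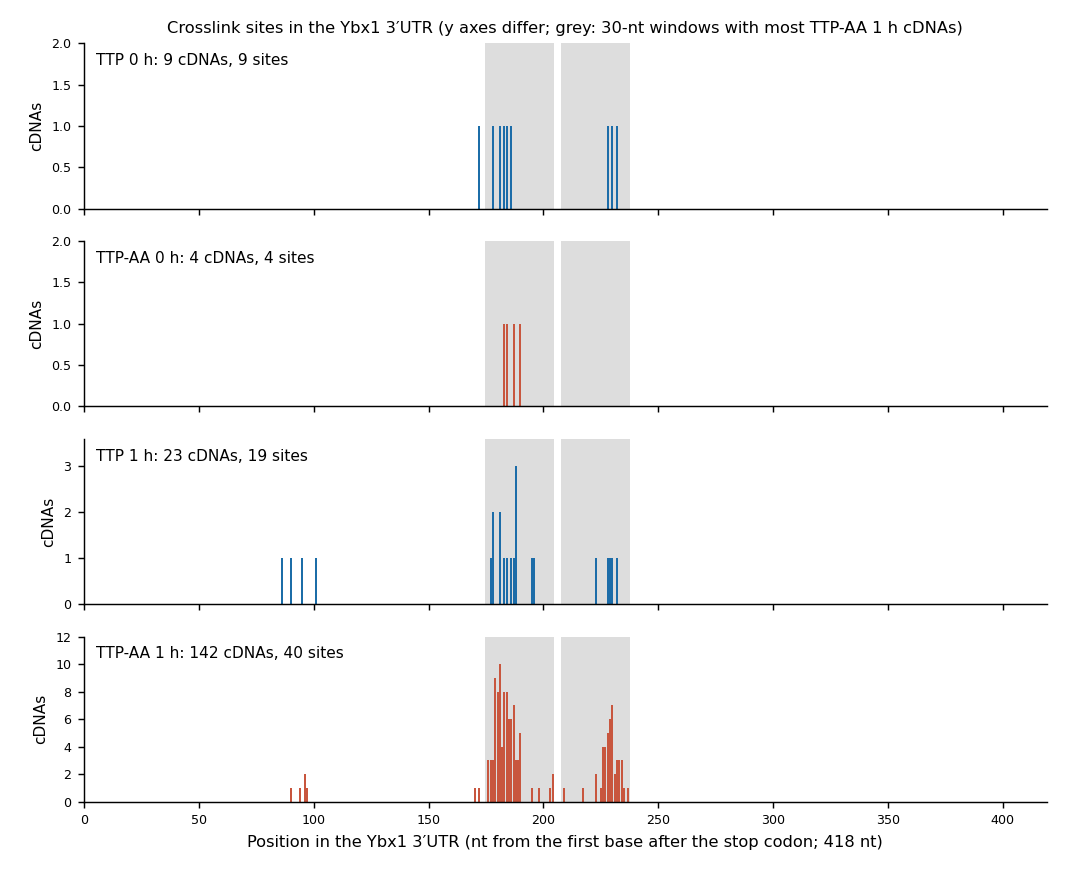
cDNAs (y, a separate scale for each list) at each position of the Ybx1 3′UTR (x, nt after the stop codon) in the 4 lists with sites, with TTP in blue, TTP-AA in red and the 2 printed stretches in grey. Sites gather at the same stretches in both 1 h lists, and the 0 h lists hold single cDNAs there.

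On Ybx1, which lacks AUUUA, most cDNAs lay in the 2 printed stretches, which contain U runs. The stretches were chosen by their TTP-AA 1 h cDNAs. The 12 copies of UUUUU in this 3′UTR ran from nt 119 to nt 366, so U runs also lay where no site was found. Whether sites favoured U runs within the gene was not tested. The stretch at nt 175 to 204 held 5 of 9 cDNAs at TTP 0 h (55.6%), all 4 at TTP-AA 0 h, 14 of 23 at TTP 1 h (60.9%) and 91 of 142 at TTP-AA 1 h (64.1%). The stretch at nt 208 to 237 held 3 cDNAs at TTP 0 h, none at TTP-AA 0 h, 5 at TTP 1 h (21.7%) and 44 at TTP-AA 1 h (31.0%). The highest position was nt 181 at TTP-AA 1 h, with 10 cDNAs, and nt 188 at TTP 1 h, with 3. The median position of the cDNAs was nt 184 at TTP 0 h and nt 186 in the other 3 lists. All 19 sites of TTP 1 h had a TTP-AA 1 h site within 15 nt and 15 of them shared its nucleotide, where 71.4% and 24.5% of the bases from nt 86 to 232 did, and all 40 of TTP-AA 1 h had a TTP 1 h site within 15 nt. No Ybx1 site lay beyond nt 237, so the last part of the 3′UTR, with its AAUAAA at nt 342 and nt 398, had none.

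In both genes most crosslinks were at uridines. The share of cDNAs at a U was between 59.2% and 77.8% over the 6 lists for Ybx3, the highest on 9 cDNAs at TTP-AA 4 h. For Ybx1 it was 69.6% of 23 cDNAs at TTP 1 h and 73.9% of 142 at TTP-AA 1 h. It was 100% at TTP 0 h and TTP-AA 0 h, on only 9 and 4 cDNAs. Over all 3′UTR cDNAs the share was between 54.7% and 65.2%.

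Other genes with cold-shock domains were also looked up. Ybx2, a Y-box relative, and Csdc2, Carhsp1, Lin28a and Lin28b had no 3′UTR site in any list.

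Among 22 other genes for mRNP proteins, 19 had 3′UTR cDNAs in at least 1 list, 12 at TTP 1 h and 18 at TTP-AA 1 h. The most crosslinked at 1 h were G3bp1 (a stress-granule protein; 26 cDNAs with TTP and 138 with TTP-AA), Pcbp2 (a poly(C)-binding protein; 18 and 143) and Syncrip (an hnRNP protein; 7 and 81), by the sum of both 1 h lists, and all had fewer cDNAs than Ybx3. In TTP 1 h alone Pabpc1, Pcbp1, Hnrnpu and G3bp2 had more than Syncrip. Of the 15 tested between the proteins at 1 h, 0 were called by Fisher's exact test and 4 had an unadjusted p under 0.05. Over all 2065 tested genes 132 (6.39%) were called and 374 had an unadjusted p under 0.05. The median log2 odds ratio was -0.86 over the 11 with cDNAs in both lists and -0.43 over the 15, beside -0.66 and 1.23 over all genes. Over all 7 comparisons the calls were both of Pabpc1, the cytoplasmic poly(A)-binding protein, which went from 0 to 13 cDNAs from TTP 0 h to TTP 1 h (Fisher's exact test, adjusted p = 0.0362; 131 of 276 genes called) and had a higher share at TTP-AA 4 h (6 cDNAs) than at TTP-AA 1 h (58 cDNAs; log2 odds ratio 3.38 ± 0.60 SE, adjusted p = 0.00435; 62 of 1980 genes called). For this last step the median log2 odds ratio was 3.26 over the 144 genes with cDNAs in both lists, close to that of Pabpc1, and 1.26 over all 1980.

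For reference, Tnf, the cytokine mRNA that is the classic TTP target, had 53 3′UTR cDNAs at TTP 0 h, 0 at TTP-AA 0 h, 727 at TTP 1 h, 1673 at TTP-AA 1 h, 35 at TTP 4 h and 77 at TTP-AA 4 h. Ybx3 therefore had more 3′UTR cDNAs than Tnf at both 0 h groups and fewer in the 1 h lists. At 1 h the Tnf log2 odds ratio of TTP-AA to TTP was -2.18 and that of Actb was -1.48 ± 0.09 SE, both further below 0 than that of Ybx3, whereas on the share of all cDNAs they were 0.39 and 1.03.

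The genes whose shares over the 6 lists were most like those of Ybx3 were Tfrc (transferrin receptor), Mat2a (methionine adenosyltransferase) and Rnf225. Likeness was the Euclidean distance between the shares of 3′UTR cDNAs in the 6 lists scaled to sum to 1, among 458 other genes with at least 50 3′UTR cDNAs. The distances were 0.0729, 0.117 and 0.118, where the median gene was at 0.581. Tfrc had 18, 21, 36, 171, 10 and 4 cDNAs in the order TTP and TTP-AA at 0 h, 1 h and 4 h. For Ybx1 they were Ccng1 (cyclin G1), Hnrnpk (an hnRNP protein) and C5ar1 (the C5a receptor), at 0.0778, 0.110 and 0.122, where the median was 0.490. The distance between Ybx3 and Ybx1 was 0.471, and Ybx1 was at 0 in both 4 h lists. These are descriptions over 6 lists that differ in depth.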

How the data were processed

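iCLIP was measured in 15 libraries of 6 groups. Per the file headers and methods, the authors counted unique cDNAs after removal of PCR duplicates by random barcode bases, mapped unique reads to mm10 with Bowtie (version not given in the sources used here; Ensembl 75 annotation), took the base before each read as the crosslink site, pooled each group's libraries and kept sites under a false discovery rate of 0.05 (iCount, 100 permutations, 15 nt neighbourhood). The deposited values are a score per site, a whole cDNA count whose sign gives the strand; no per-library columns were used.

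From these scores, sites were assigned on their strand to GENCODE M21 genes (same assembly; 3′UTR before CDS, 5′UTR, non-coding exon and intron), positions were set on each gene's transcript of longest 3′UTR, and pooled lists were compared by Fisher's exact test for genes with at least 10 3′UTR cDNAs, with Benjamini-Hochberg adjustment and a threshold of 0.05. Odds ratios had 0.5 added to each cell. Shares have 95% Wilson intervals. Sequences came from the GENCODE M21 transcripts. The test was tested on simulated data. Python 3.11.15, numpy 2.4.6, pandas 2.3.3, scipy 1.17.1 and matplotlib 3.10.9 were used.

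Genes named were the pair, other cold-shock-domain genes (1 result on these is not reported here), those of 22 mRNP genes past the threshold or with the 3 highest 1 h counts, Tnf and Actb, pseudogenes holding a site, and the 3 genes most like each member; the 3 pseudogenes named hold none and were named after their values were seen. Of the 8 macrophage and 10 other markers the counts are given. Members and lists were chosen with earlier results of these data known. Alternatives tried were counting sites once, other denominators, the order of regions, a minimum of 2 cDNAs per site, 5 cDNAs per gene, other motif windows and other overlap distances.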

Additional observations from a re-analysis of the deposited data

Results flagged for a closer look

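As a share of all cDNAs of the list, the difference between TTP-AA and TTP changed with time for both genes. The Ybx3 log2 odds ratio was -0.30 at 0 h and 1.77 at 1 h, a difference of 2.06 (exact test of equal odds ratios, adjusted over 4 tests p = 5.01e-12). At 4 h it was -1.08, which differed from 1 h by -2.85 (exact test, adjusted p = 3.01e-08). The Ybx1 log2 odds ratio was -1.04 at 0 h and 1.79 at 1 h, a difference of 2.82 (exact test, adjusted p = 0.00151). On the share of 3′UTR cDNAs the corresponding adjusted p-values were 0.840, 0.153 and 0.503. 3′UTR cDNAs made up 93510 of 174397 cDNAs at TTP-AA 1 h and 9558 of 99263 at TTP 1 h, against 6008 of 32617 and 4369 of 33587 at 0 h, and 1000 of 19167 and 906 of 29060 at 4 h. The part of this difference in the result was not tested.

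A signal outside the 3′UTR was the 5 intronic cDNAs of Ybx3 at TTP 0 h, on 5 consecutive bases with 1 cDNA each, which no comparison above used. No annotated exon of Ybx3 covers them and no other list had a site there.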

How the results depend on the processing

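With all cDNAs of the list as the denominator, the log2 odds ratio of TTP-AA to TTP was -0.30 (0 h), 1.77 (1 h) and -1.08 (4 h) for Ybx3, with 1.79 for Ybx1 at 1 h. On that scale the steps in time for Ybx3 were -0.65 (TTP, 0 h to 1 h), -0.37 (TTP, 1 h to 4 h), 1.41 (TTP-AA, 0 h to 1 h) and -3.22 (TTP-AA, 1 h to 4 h), and for Ybx1 -0.26, -3.78, 2.57 and -4.97. Without the ribosomal RNA locus on chromosome 17 in that denominator, Ybx3 gave -0.36 at 0 h and 1.44 at 1 h, with steps of -0.30 (TTP, 1 h to 4 h), 1.40 and -3.18 (TTP-AA), and Ybx1 gave 1.46 at 1 h, with steps of -0.0003, -3.71, 2.56 and -4.93. With the denominator of mRNA cDNAs, chosen after seeing the data, Ybx3 gave -0.08 (TTP-AA, 1 h to 4 h) and Ybx1 -0.05 (TTP, 0 h to 1 h). With each site counted once, Ybx3 gave 0.16 at 0 h, 0.70 (TTP, 0 h to 1 h) and -1.10 (TTP-AA, 0 h to 1 h), and Ybx1 gave -2.12 at 1 h, -0.65 (TTP-AA, 0 h to 1 h) and 0.11 (TTP-AA, 1 h to 4 h). With sites of at least 2 cDNAs, Ybx3 gave -0.47 at 1 h, -0.90 (TTP, 0 h to 1 h), 0.97 (TTP, 1 h to 4 h) and -0.33 (TTP-AA, 1 h to 4 h), and Ybx1 gave 0.58 at 1 h and 3.81 (TTP-AA, 0 h to 1 h). Among these, Ybx3 lost its call at 0 h (all cDNAs, with or without the locus, and sites once), at 4 h (all cDNAs), at 1 h (sites of at least 2 cDNAs) and from TTP 1 h to 4 h (all cDNAs, with or without the locus, and sites of at least 2 cDNAs). It gained one from TTP 0 h to 1 h (all cDNAs, and sites of at least 2 cDNAs), from TTP-AA 0 h to 1 h (all cDNAs, with or without the locus, and sites once) and from TTP-AA 1 h to 4 h (all cDNAs, with or without the locus). Ybx1, with no call in the main test, gained one at 1 h (all cDNAs, with or without the locus, and sites once). Between times it gained one from TTP-AA 0 h to 1 h (all cDNAs, with or without the locus, and sites of at least 2 cDNAs). It also gained one from 1 h to 4 h with either protein (all cDNAs, with or without the locus). The change of denominator changes the quantity itself, and for the other alternatives the cause was not tested.

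The share of TTP 1 h sites with a TTP-AA 1 h site was 94.5% on the same nucleotide against 100% within 15 nt. Of 100 alternative values, 63 kept their direction and side of the threshold or, without a test, stayed within the interval. The AUUUA difference ran from -28.0 to -9.21 points, with unadjusted p from 1.26e-06 to 0.0367, and whether each would pass after adjustment over 7 was not tested. The density ratio ran from 3.83 to 4.04. Over the alternatives, the adjusted p (Fisher's exact test) of TTP-AA against TTP for Ybx3 ran from 4.04e-05 to 0.938 at 0 h, from 1.06e-48 to 0.0822 at 1 h and from 7.83e-04 to 0.0564 at 4 h. These ranges mix directions. The lowest at 1 h was for the share of all cDNAs, which turned the direction (log2 1.77). In the main direction the lowest at 1 h was 9.39e-12, with each site counted once, a count with the limit given above. The highest at 0 h was also a turned value (log2 0.16). No paired analysis was possible because the lists are pooled over libraries, which also kept each library from being left out. The planned restriction to 36-nt sequences found once in the genome was not run. At 4 h the lists had at most 1000 3′UTR cDNAs, which limits what could be seen of Ybx1.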
